A study of Mus musculus with 6 samples.

Results

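The genes of the T cell receptor complex and of T cells were followed in the cerebral cortex of young adult and old adult mice. The 10 genes were chosen by symbol from the 55421 genes of the deposited tables: the CD3 chains Cd3d, Cd3e and Cd3g, the receptor constant regions Trac, Trbc1 and Trbc2, the coreceptor genes Cd4, Cd8a and Cd8b1, and the granule gene Nkg7. The samples were the cortices of 3 wild-type C57BL/6J males of 6 months of age (mice 10, 11 and 17) and 3 of 24 months (mice 2, 4 and 5), 1 library per mouse, and values of single mice are given in this order. The labels name no transgene and no treatment, and all mice were anesthetized with isoflurane before cervical dislocation. The RNA came from the whole microdissected cortex, so that RNA of blood and of the brain's coverings can be part of it. In such bulk samples a change in the number of T cells and a change in RNA per T cell cannot be told apart.

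T cells recognize antigen with a receptor of an alpha and a beta chain, whose variable parts are assembled in each developing T cell by joining V, D and J segments and are then spliced to a constant region (Trac for alpha, Trbc1 or Trbc2 for beta). The receptor reaches the cell surface only together with the CD3 chains, which carry its signal into the cell. The coreceptor CD4 marks helper T cells and the CD8 chains mark cytotoxic T cells. T cells are rare in the healthy brain parenchyma.

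Trbc1 and Trbc2 lie next to each other on chromosome 6, each behind its own cluster of J segments, and are near copies, which bears on how their reads can be counted. Over the coding part of 521 bases they differed at 23 positions and were 95.6% identical (sequences of the GENCODE vM21 transcripts, GRCm38, plus strand, positions counted from the first base of the transcript). Exon 1, of 375 bases, held 1 of these differences (C260A, Trbc1 base first). The last 175 bases of exon 1 follow with this base in capitals, for Trbc1 (chr6:41538418-41538592) and for Trbc2 (chr6:41546930-41547104).
Trbc1: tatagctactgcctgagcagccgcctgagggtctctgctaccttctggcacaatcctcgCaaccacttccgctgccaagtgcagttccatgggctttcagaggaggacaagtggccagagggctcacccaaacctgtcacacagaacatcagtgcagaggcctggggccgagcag
Trbc2: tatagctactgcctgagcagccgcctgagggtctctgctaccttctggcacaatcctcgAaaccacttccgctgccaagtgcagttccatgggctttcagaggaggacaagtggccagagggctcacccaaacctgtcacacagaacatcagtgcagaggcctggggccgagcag

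The other 22 differences lay in the 146 coding bases after exon 1, where the identity was 84.9%. These spliced bases are shown with the differing ones in capitals, for Trbc1 (between 41539114 and 41539665 on chromosome 6) and for Trbc2 (between 41547610 and 41548181).
Trbc1: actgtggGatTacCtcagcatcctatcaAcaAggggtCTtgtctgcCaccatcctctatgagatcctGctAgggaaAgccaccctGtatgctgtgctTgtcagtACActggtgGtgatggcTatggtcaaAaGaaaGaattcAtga
Trbc2: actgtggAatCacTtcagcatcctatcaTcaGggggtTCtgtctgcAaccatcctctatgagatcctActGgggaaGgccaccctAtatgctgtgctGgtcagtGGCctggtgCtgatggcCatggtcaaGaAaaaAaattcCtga

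The authors trimmed their reads to at most 69 bases and, with the mapping quality they required, counted only reads placed at a single position. Of the 624 windows of 69 bases in the Trbc2 transcript, 245 (39.3%) were also found in Trbc1, and of the 669 windows in the Trbc1 transcript 245 (36.6%) were also found in Trbc2. Full-length reads that lie wholly in these windows enter neither count. Full-length reads that lie wholly within a transcript are therefore counted from the remaining 60.7% of the Trbc2 and 63.4% of the Trbc1 windows. Such a read counted on Trbc2 held a base that Trbc1 does not have. Reads that also cover bases outside the transcripts, in a J segment or an intron, can be counted as well and were not examined.

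**Figure D1:**
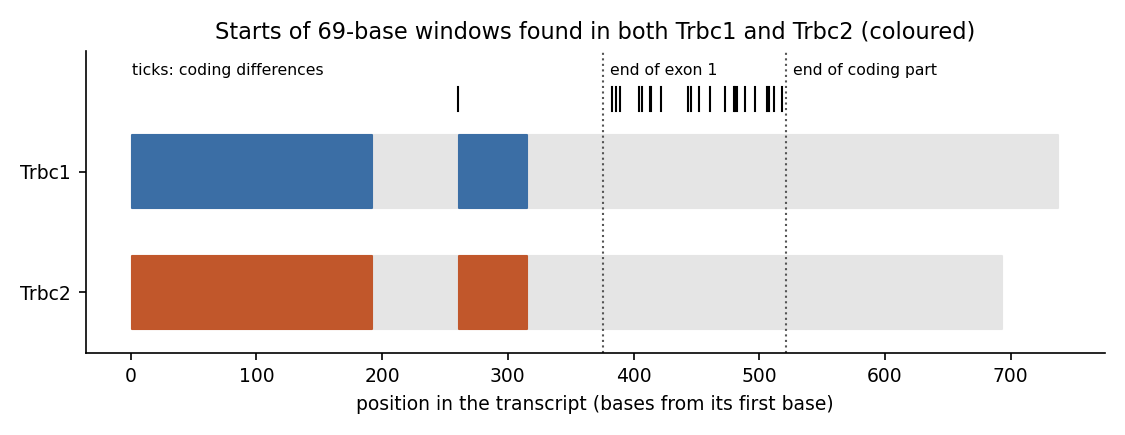
The 2 bars are the Trbc1 (737 bases) and Trbc2 (692 bases) transcripts, with the position in bases on the horizontal axis. Coloured stretches are the starts of 69-base windows found in both genes, 245 in each, ticks are the 23 coding differences and dotted lines are the end of exon 1 and of the coding part.

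Upstream of Trbc2 lie the 7 segments of the second beta J cluster, which is shown because its counts stand beside those of Trbc2 in the results. J segments commonly encode a Phe-Gly-X-Gly motif, which was searched on the coding strand as TTCGGNNNNGGN or TTTGGNNNNGGN and is in capitals. It was found in 6 of 7 Trbj2, 5 of 7 Trbj1 and 43 of 60 Traj segments, 54 of the 74 searched (73.0%). Trbj2-6, which the annotation calls a pseudogene, did not hold these letters. Neither did Trbj1-6 and Trbj1-7, which it calls J genes, so that a segment without these letters need not be a pseudogene. The segments run from Trbj2-1 (chr6:41542754-41542803) to Trbj2-7 (chr6:41543810-41543856), which ends 2874 bp before Trbc2.
Trbj2-1: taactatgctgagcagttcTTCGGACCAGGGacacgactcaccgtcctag
Trbj2-2: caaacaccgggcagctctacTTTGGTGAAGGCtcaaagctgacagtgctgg
Trbj2-3: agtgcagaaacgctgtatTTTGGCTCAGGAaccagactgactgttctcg
Trbj2-4: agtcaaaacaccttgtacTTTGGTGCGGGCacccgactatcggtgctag
Trbj2-5: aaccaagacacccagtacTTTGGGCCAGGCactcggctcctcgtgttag
Trbj2-6: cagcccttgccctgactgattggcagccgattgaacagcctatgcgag
Trbj2-7: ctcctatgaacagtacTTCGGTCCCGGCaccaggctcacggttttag

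The libraries held 29495379 to 36494240 counts each, so that 1 count is a very low level. The 32905 genes that reached 10 counts in the sum of all libraries were compared between the ages with edgeR's quasi-likelihood test after TMM scaling, with p-values adjusted by the Benjamini-Hochberg method over all of them. The scaling sets where a fold change of 0 lies. The log2 fold changes had a median of 0.15 in the whole table and of -0.14 for 15761 genes above 1 CPM (counts scaled to the library size), which library totals alone moved to 0.33 and 0.05. Genes that the cortex is not known to use also gained counts at 24 months. The 1812 genes of the sensory receptor families (odorant, vomeronasal and taste receptors) had 0.0220, 0.0238 and 0.0247 CPM per exonic kb at 6 months and 0.0853, 0.0718 and 0.0530 at 24 months, a ratio of the means of 2.98. The study itself reported sensory perception as the main process of the genes it called higher in the old cortex, so these families are not outside its findings. This density is given below beside each gene, and its part in the results was not tested.

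All 10 genes passed the minimum of 10 counts, but 6 of them (Cd3d, Cd3g, Cd8a, Cd8b1, Trbc1 and Nkg7) had fewer than 10 counts over the 6-month mice and passed only through their counts at 24 months. The number of members that were higher therefore supports nothing by itself. No member (0 of 10) passed an FDR of 1%, where the quasi-likelihood test here called 0% of all genes tested. The study set the same threshold with its own edgeR test and filter, and did call genes at it. At an FDR of 10%, 4 members (Cd3g, Cd8a, Cd8b1 and Nkg7) were higher, beside 10.0% of all genes, and 0 were lower, beside 8.33%. At an unadjusted p under 0.05, 5 members were higher (Cd3d in addition), beside 17.6% of all genes, and 0 were lower, beside 13.1%. The likelihood ratio test of edgeR called 2 members (Cd3g and Nkg7) higher at 1% FDR, beside 4.41% of all genes, the exact test of edgeR called 1 (Nkg7) and the Wald test of DESeq2 called 0. Among the 12822 genes with 10 to 60 counts over the 6 libraries, a range that holds 7 members, the median log2 fold change was 1.16. In this range 17.7% were higher and 0.0546% lower at an FDR of 10%, and 31.9% were higher at an unadjusted p under 0.05. The likelihood ratio test called 7.95% of them higher at 1% FDR. Without overlap of the ages, 6 members (Cd3d, Cd3e, Cd3g, Cd8a, Cd8b1 and Nkg7) were higher, beside 20.0% of all genes and 35.3% of this range. Only 1 member (Trbc2) was lower without overlap, beside 16.2% of all genes. The 4 calls at 10% FDR were all lost when the 6-month mouse 10 or 11 or the 24-month mouse 2 or 4 was left out, and with the 6-month mouse 17 left out 2 of them (Cd3g and Nkg7) were kept.

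The CD3 chains had at most 16 counts in any cortex. Cd3d, Cd3e and Cd3g, which pair as signal-carrying partners of the receptor, lie together on chromosome 9 (Cd3g at 44969572 to 44980431, Cd3d at 44981786 to 44987339 and Cd3e at 44998740 to 45009627), and Cd3g and Cd3d start back to back with 1355 bp between the genes. Cd3g had 2, 0 and 4 counts at 6 months and 9, 16 and 7 counts at 24 months. All old mice thus lay above all young mice, with 0.0623 ± 0.0611 CPM (SD, n = 3) at 6 months and 0.315 ± 0.132 CPM (SD, n = 3) at 24 months. The log2 fold change was 2.30 ± 0.71 (SE; edgeR quasi-likelihood test with Benjamini-Hochberg adjustment, adjusted p = 0.0769). It was 1.75 when the 6-month mouse 11 and 3.21 when the 6-month mouse 17 was left out.

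Cd3d had 1, 1 and 2 counts at 6 months and 6, 3 and 4 counts at 24 months. Cd3e had 4, 4 and 7 counts at 6 months and 10, 9 and 10 counts at 24 months. In both genes the ages did not overlap, but neither change passed the test at 10% FDR, with log2 fold changes of 1.58 ± 0.69 for Cd3d (SE; edgeR quasi-likelihood test, adjusted p = 0.155) and 0.89 ± 0.43 for Cd3e (adjusted p = 0.185). An antisense gene, Gm48719, overlaps the exons of Cd3e by 135 bases, and the library kit does not mark the strand, so that their reads cannot be told apart there. Gm48719 itself had at most 2 counts in a library.

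Set beside the sensory receptor families, the CD3 chains lay close to their density, at 0.811 to 1.60 times it at 6 months and at 1.01 to 1.38 times it at 24 months. At 24 months the 3 libraries together held 13 counts of Cd3d, where the density of the sensory receptors over the exonic length of Cd3d gives 12.8 counts. For Cd3e they held 29 counts against 28.8, and for Cd3g 32 against 23.1. At 6 months the observed counts were 4, 15 and 6 for Cd3d, Cd3e and Cd3g, and those given by the density 4.19, 9.42 and 7.55. The mean level per exonic kb at 24 months was 3.18 times that at 6 months for Cd3d, 1.88 times for Cd3e and 5.06 times for Cd3g, beside 2.98 times for the sensory receptors. These factors are descriptions without a test.

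**Figure D2:**
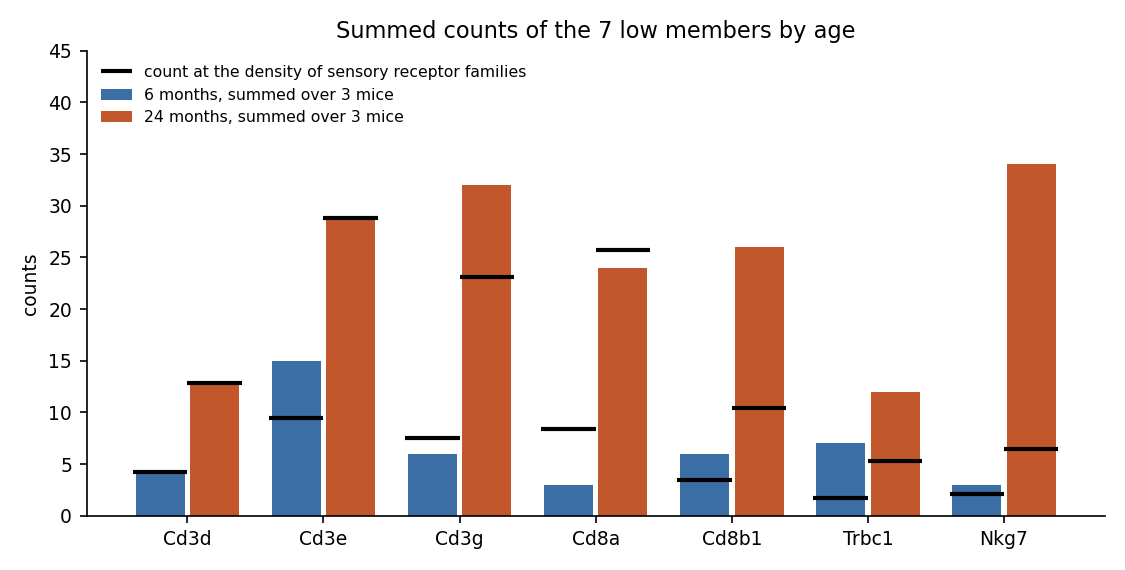
Bars are the counts of the 7 members with 10 to 60 counts in all, summed over the 3 mice of each age, and black lines are the counts that the density of the sensory receptor families would give over the same exonic length and libraries. At 24 months the bars of Cd3d, Cd3e and Cd8a end within 2 counts of their lines, whereas Cd8b1 (26 counts), Trbc1 (12 counts) and Nkg7 (34 counts) end above theirs at 10.5, 5.29 and 6.45 counts.

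The CD8 chains, which form the coreceptor of cytotoxic T cells, are neighbours on chromosome 6 (Cd8b1 at 71322788 to 71337494 and Cd8a at 71373427 to 71379173). Cd8a had 0, 2 and 1 counts at 6 months and 6, 14 and 4 counts at 24 months. Cd8b1 had 2, 3 and 1 counts at 6 months and 12, 8 and 6 counts at 24 months. The ages did not overlap in either gene, and both passed an FDR of 10% but not 1%, with a log2 fold change of 2.81 ± 0.83 for Cd8a (SE; edgeR quasi-likelihood test, adjusted p = 0.0697) and of 2.01 ± 0.58 for Cd8b1 (adjusted p = 0.0674). Leaving out single mice moved that of Cd8a to 2.21 at the lowest (24-month mouse 4 left out) and 3.66 at the highest (6-month mouse 11 left out), and that of Cd8b1 to 1.69 (24-month mouse 2 left out) and 2.40 (6-month mouse 11 left out). With 3 counts of Cd8a in all at 6 months, the ratio of the summed levels was 7.77 with an exact 95% interval of 2.36 to 40.3, which covers counting error only.

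The CD8 chains differed in their place beside the sensory receptors. Cd8a, with 24 counts at 24 months where the density gives 25.7, lay at 0.925 times that density, and at 6 months at 0.345 times. Cd8b1, with 26 counts at 24 months where the density gives 10.5, lay at 2.49 times that density, and above it in all 3 old mice. Per exonic kb, Cd8b1 was at 0.175 CPM at 24 months and exceeded 98.5% of the 1812 sensory receptor genes, and Cd8a was at 0.0648 CPM and exceeded 54.2% of them.

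Cd4, the coreceptor gene of helper T cells, which other immune cells of the brain can also express, was the second most counted member after Trbc2 at both ages (chromosome 6, 124864692 to 124888221). It had 86, 64 and 42 counts at 6 months and 109, 76 and 69 counts at 24 months. The ages overlapped, with 1.97 ± 0.761 CPM at 6 months and 2.53 ± 0.725 CPM at 24 months (SD, n = 3 each). The log2 fold change of 0.36 ± 0.30 did not pass the test (SE; edgeR quasi-likelihood test, adjusted p = 0.438) and was 0.11 when the 24-month mouse 2 and 0.68 when the 6-month mouse 10 was left out. Per exonic kb, Cd4 was at 0.490 CPM at 6 months and 0.627 CPM at 24 months, 20.8 and 8.95 times the sensory receptors. The gene Gpr162 lies 709 bp downstream of Cd4 on the same strand, at 129 TPM (transcript level per length, scaled to the library) at 6 months and 165 TPM at 24 months.

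**Figure D3:**
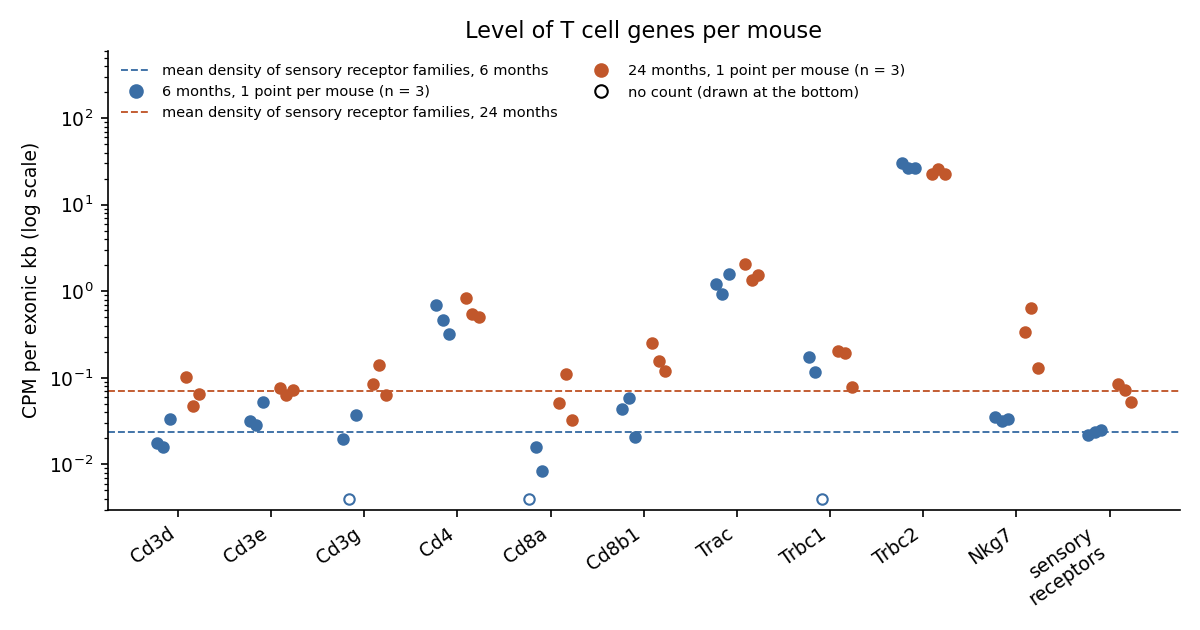
Each point is 1 mouse, with its level in CPM per exonic kb on a logarithmic axis, blue at 6 months and orange at 24 months; open points at the bottom had no count. Dashed lines are the mean density of the sensory receptor families (0.0235 and 0.0701), near which the CD3 chains lie at both ages and Cd8a at 24 months, while Cd4, Trac and Trbc2 lie above it in every mouse.

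The constant regions of the receptor stood far apart from the CD3 chains and from each other. Trbc2 (chromosome 6, 41546730 to 41548352) was the member of highest level by a wide margin, with 655, 642 and 603 counts at 6 months and 513, 618 and 537 counts at 24 months. In the deposited TPM values it was at 98.7 ± 7.45 TPM at 6 months and 90.7 ± 6.53 TPM at 24 months (SD, n = 3 each), position 1981 among the 55421 genes by mean TPM. Per exonic kb its level was 1194 times that of the sensory receptors at 6 months and 340.0 times at 24 months.

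After TMM scaling, the 24-month mice had 15.8, 17.9 and 15.8 CPM of Trbc2, below the 21.2, 18.6 and 18.4 CPM of the 6-month mice, and 16.2% of all genes tested were likewise lower without overlap. The log2 fold change of -0.24 ± 0.12 did not pass the test (SE; edgeR quasi-likelihood test, adjusted p = 0.196). It was -0.04 with library totals, where the ages overlapped, as they did in TPM. Under either scaling it lay 0.09 below the median of the genes above 1 CPM.

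Trac, the constant region of the alpha chain (chromosome 14, 54220521 to 54224206), was counted 35, 30 and 48 times at 6 months and 62, 44 and 49 times at 24 months. The ages overlapped, with 4.35 ± 1.12 TPM at 6 months and 6.27 ± 1.35 TPM at 24 months (SD, n = 3 each). The log2 fold change of 0.41 ± 0.26 did not pass the test (SE; edgeR quasi-likelihood test, adjusted p = 0.305). Per exonic kb, Trac lay at 52.6 times the sensory receptors at 6 months and at 23.5 times at 24 months. In TPM, Trbc2 was 17.0 to 28.9 times as high as Trac in the 6-month mice and 11.2 to 19.0 times as high in the 24-month mice, although a receptor pairs 1 alpha with 1 beta chain.

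Trbc1 (chromosome 6, 41538218 to 41539881), the near copy of Trbc2, had 4, 3 and 0 counts at 6 months and 5, 5 and 2 counts at 24 months. Its ages overlapped and its log2 fold change of 0.70 ± 0.83 did not pass the test (SE; edgeR quasi-likelihood test, adjusted p = 0.585). It was 0.14 when the 6-month mouse 17 and 1.34 when the 6-month mouse 10 was left out. The counts of Trbc2 were 1900 over the 6-month mice against 7 of Trbc1. The windows found in both genes were 36.6% of those of Trbc1 and 39.3% of those of Trbc2, and their part in this difference was not tested.

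The segments that a T cell joins to these constant regions were counted too, and the J segments next to Trbc2 stood apart from the V segments. The 35 rows of Trbv segments, which every rearranged beta chain needs, held 6, 9 and 14 counts together at 6 months and 34, 39 and 21 counts at 24 months. Per exonic kb this was 0.0234 CPM at 6 months and 0.0742 CPM at 24 months, beside 0.0235 and 0.0701 CPM of the sensory receptors. The ages did not overlap in the summed counts of the Trbv segments, as in those of the sensory receptors.

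The 7 Trbj2 segments held 113, 93 and 69 counts at 6 months and 70, 101 and 77 counts at 24 months, so that the ages overlapped. Trbj2-3 had most of them, 61, 47 and 34 counts at 6 months and 37, 54 and 42 counts at 24 months. It was followed by Trbj2-7 (18, 13 and 16 counts, then 13, 15 and 10 counts) and Trbj2-4 (7, 8 and 9 counts, then 5, 9 and 7 counts). For 100 counts of Trbc2, there were 11.4 to 17.3 counts of Trbj2 in the 6-month mice and 13.6 to 16.3 in the 24-month mice, but 0.916 to 2.32 and 3.91 to 6.63 counts of all Trbv segments. The 7 Trbj1 segments, in front of Trbc1, held 1 to 6 counts at 6 months and 3 to 8 counts at 24 months. Since J segments are shorter than a read, a read counted on one also covers the bases around it or, if spliced, part of the constant region.

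On the alpha side, the 130 rows of Trav segments held 16, 20 and 15 counts at 6 months and 54, 47 and 42 counts at 24 months, 0.0107 and 0.0293 CPM per exonic kb, below the density of the sensory receptors at both ages. Many Trav segments are near-identical copies, and reads that fit several of them were not counted. The 60 Traj rows held 5, 12 and 7 counts at 6 months and 25, 23 and 11 counts at 24 months. The last J segment before Trac, Traj1, had 0 counts in every library. Over all V segments of the receptor loci, 103 of 178 rows had a count in some library, with 90 counts in all at 6 months and 269 at 24 months.

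**Figure D4:**
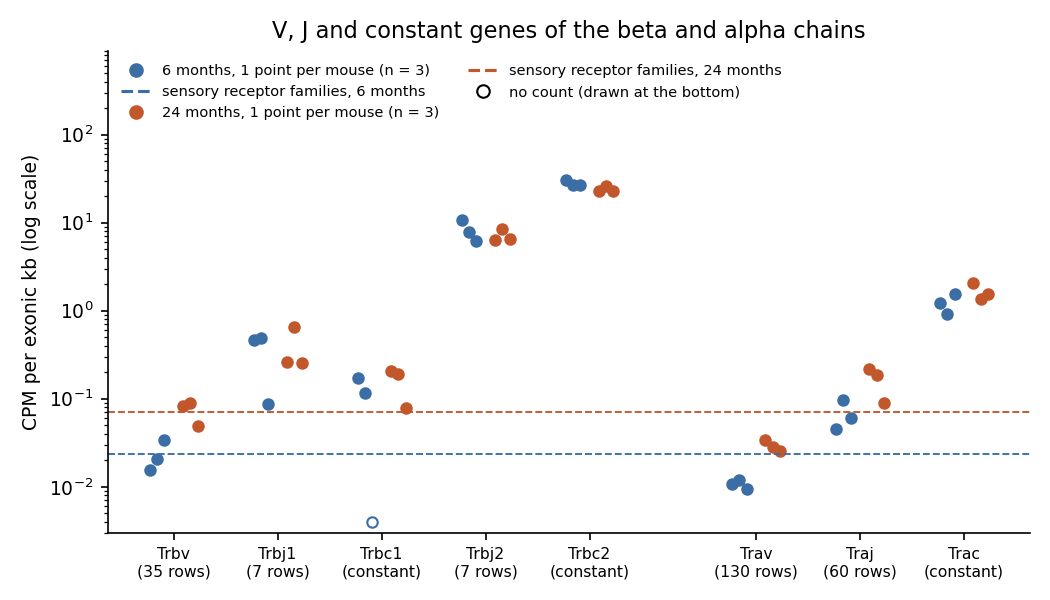
Points are the summed level of each segment family, or the level of each constant gene, in 1 mouse, in CPM per exonic kb on a logarithmic axis (blue 6 months, orange 24 months, open points no count, dashed lines the sensory receptor families). The Trbj2 segments (8.23 at 6 months and 7.13 at 24 months on average) and Trbc2 lie above the other families in every mouse, and the Trbv and Trav segments lie near or below the lines.

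The genes whose log2 CPM ran most like that of Trbc2 over the 6 libraries, among 15760 others with a mean of at least 1 CPM, were 2610507I01Rik (Pearson r = 0.998), B3galt6 (r = 0.996) and Hsd17b12 (r = 0.995). The libraries share the difference between the ages and the scaling, so these values are a description.

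Nkg7 codes for a protein of the cytotoxic granules of CD8 T cells and natural killer cells (chromosome 7, 43437073 to 43438249). It had 1 count in each of the 6-month mice and 10, 20 and 4 counts at 24 months. All old mice lay above the young mice, at 0.0306 ± 0.00174 CPM at 6 months and 0.335 ± 0.231 CPM at 24 months (SD, n = 3 each). With 3 counts in all at 6 months, the summed levels had a ratio of 11.0 with an exact 95% interval of 3.46 to 56.0 for counting error, and the log2 fold change was 3.30 ± 0.78 (SE; edgeR quasi-likelihood test, adjusted p = 0.0552). Leaving out single mice moved the log2 fold change to 2.69 at the lowest (24-month mouse 4 left out) and 3.71 at the highest (24-month mouse 5 left out). Per exonic kb, Nkg7 lay at 1.43 times the sensory receptors at 6 months and at 5.22 times at 24 months. It was above them in all 6 mice, but at 6 months the density gives 2.11 counts over the 3 mice, against 3 counted.

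**Figure D5:**
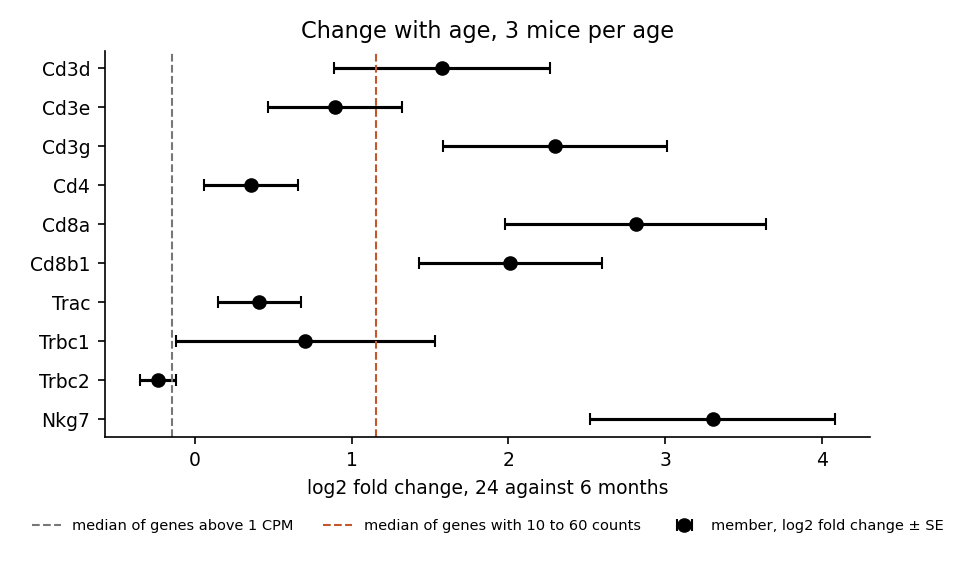
Points are the log2 fold changes of the members at 24 against 6 months, with 3 mice per age, and bars their SE derived from edgeR's quasi-likelihood test. The grey line is the median of the genes above 1 CPM (-0.14) and the orange line that of the genes with 10 to 60 counts (1.16); Nkg7 (3.30), Cd8a (2.81), Cd3g (2.30) and Cd8b1 (2.01) are the farthest to the right.

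Levels of the CD3 chains, Trac and the CD8 chains were also summed per mouse, without the beta constant regions. Of these, Trbc2 alone was at 19.4 CPM at 6 months and 16.5 CPM at 24 months (means, n = 3 each). The CD3 chains, Trac and the CD8 chains together were at 1.43, 1.16 and 1.92 CPM at 6 months and at 3.24, 2.72 and 2.35 CPM at 24 months, a ratio of the means of 1.84. The ages did not overlap, as in 20.0% of all genes tested that were higher at 24 months and in 6 of the members taken singly. Without Trac, the CD3 and CD8 chains had 9, 10 and 15 counts at 6 months and 43, 50 and 31 counts at 24 months. For Cd3d, Cd3e, Cd3g, Cd8a and Cd8b1 in turn, the sensory density gives 4.19, 9.42, 7.55, 8.40 and 3.42 counts over the 6-month mice. Over the 24-month mice it gives 12.8, 28.8, 23.1, 25.7 and 10.5 counts. With 3 mice per age, an exact permutation test of such a value cannot give a two-sided p below 0.1.

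The label was set beside the defining markers of T cells, Cd3d, Cd3e, Cd3g, Cd247, Trac, Lck, Zap70 and Lat. Each of the 8 had a count in every library, except Cd3g in the 6-month mouse 11, and their summed level was 7.02 to 10.3 TPM at 6 months and 10.7 to 15.4 TPM at 24 months. Most of this sum was Trac (means of 4.35 and 6.27 TPM), Lck (2.11 and 2.42 TPM) and Zap70 (1.48 and 2.30 TPM). In TMM-scaled CPM the ages overlapped in each of these genes. Of the 8, 3 (Cd3d, Cd3g and Cd247) were higher at an unadjusted p under 0.05 and none was lower, beside 17.6% and 13.1% of all genes. Cd247, the zeta chain of the receptor complex, had 4, 3 and 2 counts at 6 months and 11, 14 and 6 counts at 24 months, and lay at 0.739 and 0.821 times the density of the sensory receptors. Lck and Zap70, the kinases that act first after the receptor, lay at 25.5 and 17.9 times that density at 6 months and at 9.09 and 8.63 times at 24 months. Lck had 53 to 60 counts at 6 months and 49 to 72 at 24 months, so that its ages overlapped.

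The 24 genes that pass on the receptor's signal were all tested. At an unadjusted p under 0.05, 9 were higher and 3 lower, beside 17.6% and 13.1% of all genes. The quasi-likelihood test called 0 of them at 1% FDR, the likelihood ratio test called 3 higher, beside 4.41% of all genes, and the median log2 fold change was 0.49 beside 0.15 over all genes. Themis, which T cells need during thymic selection, had 4, 4 and 8 counts at 6 months and 52, 51 and 34 counts at 24 months. Its log2 fold change was 3.03 ± 0.37 (SE; edgeR quasi-likelihood test, adjusted p = 0.0313). Per exonic kb Themis lay at 0.595 times the sensory receptors at 6 months and at 1.66 times at 24 months. Trat1, an adaptor associated with the receptor, had 12, 8 and 11 counts at 6 months and 36, 28 and 23 counts at 24 months, a log2 fold change of 1.43 ± 0.33 (adjusted p = 0.0552).

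The genes of this list with the highest levels are ones that other cells use as well, and in both the old mice lay below the young mice. Rasgrp1, an activator of Ras that neurons also express, was at 504 TPM at 6 months and 373 TPM at 24 months, with a log2 fold change of -0.55 ± 0.14 (SE; edgeR quasi-likelihood test, adjusted p = 0.0562). Nck1, a widely used adaptor, was at 32.2 and 25.4 TPM (log2 fold change -0.46 ± 0.13, adjusted p = 0.0633).

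Of 28 genes of T cell identity and migration, 27 were tested. At an unadjusted p under 0.05, 13 were higher and 1 was lower, beside 17.6% and 13.1% of all genes and 31.9% higher among those with 10 to 60 counts. The quasi-likelihood test called 0 at 1% FDR and the likelihood ratio test called 6 higher, beside 4.41% of all genes, with a median log2 fold change of 0.87. Cd2, an adhesion receptor of T cells, had 3, 3 and 4 counts at 6 months and 16, 11 and 12 counts at 24 months, so that the ages did not overlap. The log2 fold change of Cd2 was 1.89 ± 0.44 (SE; edgeR quasi-likelihood test, adjusted p = 0.0552), and it lay at 2.50 times the sensory receptors per exonic kb at 6 months and at 3.18 times at 24 months. The genes of this list at the highest levels, S1pr1 (236 and 231 TPM) and Bcl11b (38.2 and 31.0 TPM), are also expressed by cells of the brain itself. Cd40lg, a ligand of activated helper T cells, had 0 counts in every 6-month mouse and 1, 1 and 2 counts at 24 months.

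Of 17 further genes of cytotoxic T cells and natural killer cells, 15 were tested, of which 7 were higher and 0 lower at an unadjusted p under 0.05, beside 17.6% and 13.1% of all genes and 31.9% higher among those with 10 to 60 counts. The quasi-likelihood test called 0 at 1% FDR and the likelihood ratio test called 2 higher, beside 4.41% of all genes, with a median log2 fold change of 1.43. Ccl5, a chemokine of activated T cells, had 4, 1 and 5 counts at 6 months and 15, 26 and 8 counts at 24 months, with a log2 fold change of 2.20 ± 0.61 (SE; edgeR quasi-likelihood test, adjusted p = 0.0629). Klrk1, an activating receptor of natural killer and CD8 T cells, had 6, 2 and 2 counts and then 30, 12 and 13 counts (2.38 ± 0.60, adjusted p = 0.0582). Per exonic kb at 24 months, Ccl5 lay at 7.18 times the sensory receptors and Klrk1 at 1.10 times. The genes of this list at the highest levels overlapped between the ages. Gzmm, a granule protease, had 14 to 24 counts at 6 months and 16 to 22 at 24 months. Cst7, a protease inhibitor, had 7, 7 and 12 counts at 6 months and 15, 10 and 35 counts at 24 months.

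The constant regions of the second kind of T cell receptor, gamma and delta, were at low levels. Trdc had 17, 15 and 19 counts at 6 months and 18, 21 and 23 counts at 24 months (log2 fold change 0.23 ± 0.28, SE; edgeR quasi-likelihood test, adjusted p = 0.593). Trgc1 had 1 count in each young mouse and 2, 3 and 2 counts in the old mice. Of the 5 genes listed for these cells, 4 were found by symbol in the tables and 2 were tested, with 0 past an unadjusted p of 0.05.

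Markers of other cells that a dissected cortex can hold were read beside these values, and their part in the results was not tested. Of the 9 B and plasma cell genes tested, 6 were higher at an unadjusted p under 0.05 and 0 lower, beside 17.6% and 13.1% of all genes, and the summed level of the 10 genes listed was 114 to 185 TPM at 6 months and 206 to 333 TPM at 24 months. Igkc, the constant region of the kappa light chain, had 4, 6 and 16 counts at 6 months and 638, 848 and 35 counts at 24 months, and Ms4a1, the B cell gene for CD20, had 1, 2 and 4 counts and then 28, 23 and 14 counts. Ighm, the constant region of the mu heavy chain, had 3014, 3027 and 1880 counts at 6 months and 918, 2539 and 3262 counts at 24 months, so that its ages overlapped. The 5 red blood cell genes summed to 345 to 443 TPM at 6 months and 278 to 389 TPM at 24 months, with 0 of them higher and 3 lower at an unadjusted p under 0.05. For the 6 genes of the meninges and the 6 of endothelium, 0 were higher and 0 lower, and for the 9 genes of border macrophages likewise 0 and 0. Among 13 microglia genes 1 was higher and 1 lower, among 7 dendritic cell genes 2 were higher and 1 lower, and among 10 genes of cortical neurons 1 was higher and 4 were lower.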

How the data were processed

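The cerebral cortex of 6 mice was measured by RNA-seq of single-end reads, 1 library per mouse. Per the labels and methods, the authors trimmed the reads with Trim Galore 0.6.4, mapped them to GRCm38 with STAR 2.7.3a and counted them on exons with featureCounts of Subread 2.0.0, and they deposited whole-number counts per gene, which were used unscaled as the input of the tests. The authors also deposited TPM values, computed from these counts and the exonic lengths, which were used for levels and ranks.

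Counts were tested with edgeR 4.0.16 (R 4.3.3): TMM factors, at least 10 counts over the 6 libraries, the quasi-likelihood test without covariates and Benjamini-Hochberg adjustment. Alternatives were edgeR's likelihood ratio and exact tests, DESeq2 1.42.0 (its missing adjusted p-values, of Cd3d and Trbc1 among others, stayed missing), other scalings and filters, and each mouse left out. Levels per exonic kb divide TMM-scaled CPM by the exonic length recovered from the files; other computations used Python 3.11.15. Positions and sequences are those of GENCODE vM21, in which 54673 of 55421 identifiers and all 10 members were found, while the authors' annotation was a later release on the same build. Each SE is the absolute log2 fold change divided by the square root of the F statistic of the quasi-likelihood test. Intervals are exact binomial and cover counting error only.

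The members, gene lists and sensory receptor families were chosen with earlier results of these data known. Named are the members, from each described list the 2 genes of highest mean TPM and the 2 of smallest p, the 3 segments of highest mean count, neighbours, and for members with at least 100 counts in every library the 3 most similar genes. For lists of other cells only their summed values are given, with Igkc, Ighm and Ms4a1 by that rule. The defining markers of T cells were a list of their own. Cd40lg and the range of 10 to 60 counts were chosen after their values were seen. An item that the rule would name is not reported here.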

Additional observations from a re-analysis of the deposited data

How the results depend on the processing

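The number of members past 1% FDR, 0 in the quasi-likelihood test, was 2 with the likelihood ratio test and 1 with the exact test. It was 0 with the other scalings and filters, with DESeq2 and without any 1 mouse. The number higher at 10% FDR, 4, became 2 with DESeq2 and 0 with filterByExpr, which kept Cd4, Trac and Trbc2 alone of the members, and ran from 0 to 4 with 1 mouse left out. At an unadjusted p under 0.05, 5 members were higher, 0 with filterByExpr and 4 to 6 with 1 mouse left out. Over the whole table, 0 genes passed 1% FDR, against 1703 with the likelihood ratio test, 1122 with the exact test, 227 with DESeq2, 42 without a filter and 0 to 13 with 1 mouse left out. The cause of these differences between tests was not tested. No member's log2 fold change turned its direction under the alternatives in which it could be computed. The ratio of the summed level ran from 1.65 to 2.14 with 1 mouse left out, and was 1.69 with the deposited TPM and 2.11 with library totals. The number of members whose mean lay above the density of the sensory receptors at 24 months, 9, was 8 to 9 with 1 mouse left out. Of these, Cd3d and Cd3e lay at 1.02 and 1.01 times the density, and Cd3e was above it in 1 of the old mice. The share of Trbc2 windows that Trbc1 does not share, 60.7%, was 56.0% with 50-base windows and 62.3% with 75-base windows. No paired analysis was possible because the mice of the ages share no numbers and are different animals. At these depths genes with a few counts, 7 of the 10 members, rest on at most 44 counts over the 6 libraries.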
